A study of Mus musculus with 6 samples.

Results

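The 48 genes described here encode the machinery of mitosis: its cyclins and kinases, the spindle assembly checkpoint, the anaphase-promoting complex (APC) with its partners, the kinetochore, condensin, and proteins of the spindle and of cytokinesis. They were chosen by gene symbol, from a list drawn up with earlier results of these data known. It holds no kinesins named as such (Cenpe, centromere protein E, is itself a kinesin-like motor). All 48 had a row among the 11604 genes of the table and passed the filter on low counts. The cells were CT26, a colon carcinoma line from the BALB/c mouse, labelled as wild type. Of 6 RNA-seq libraries, 3 came from cells given DMSO, the solvent control, and 3 from cells given 10 µM irinotecan (CPT-11), a prodrug whose product SN-38 inhibits DNA topoisomerase I, for 24 h. No duration is given for DMSO. The comparison asked which of these transcripts differed between irinotecan and DMSO. The series' design text mentions duplicates, but the labels list 3 libraries in each group, and all were used. The labels do not say whether the 3 libraries of a group were separate cultures, so every p-value measures only the spread between these libraries, which may be technical.

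Entry into mitosis is driven by cyclin A and cyclin B bound to CDK1, which CDC25 phosphatases activate. The spindle assembly checkpoint (BUB1, BUBR1, BUB3, MAD2 and MPS1) holds back the APC until every kinetochore is attached to microtubules, after which the APC with CDC20 marks securin and cyclin B for destruction and separase opens the cohesin rings. Transcription of many of these genes peaks in G2 and mitosis, and in G1 or after p53 activation it is held down by the DREAM complex, which binds an element called CHR in their promoters, while B-Myb and FOXM1 drive it in G2.

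Promoter sequence is shown first, because these genes are known as a set under common cell cycle control. RefSeq promoter windows (250 bases before to 50 bases after each start site, build GRCm38.p6, which is not the GRCm39 build of the count table) were matched by symbol for 40 of the 48 genes. Aurkb, Ccna2, Cdc25c, Foxm1, Incenp, Smc4, Spc24 and Tpx2 were not matched. Below are the 100 bases before the start site of 4 genes that rose with irinotecan (Cdc20, Ube2c, Cdk1 and Espl1) and of 2 that did not pass the test (Ncapg and Prc1), written 5′ to 3′ on the strand of the gene. They were picked because they hold TTTGAA in this stretch, as 8 of the 40 matched genes did. Capitals mark the CHR letters TTTGAA and the CCAAT box CCAAT, each also on the other strand (TTCAAA and ATTGG).
Cdc20 (chr4:118437344-118437443, minus strand): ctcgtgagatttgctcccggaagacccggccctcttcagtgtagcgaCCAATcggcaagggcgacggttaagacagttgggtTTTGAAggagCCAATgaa
Ube2c (chr2:164769829-164769928, plus strand): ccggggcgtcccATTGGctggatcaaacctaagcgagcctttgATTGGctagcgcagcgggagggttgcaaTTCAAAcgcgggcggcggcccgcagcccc
Cdk1 (chr10:69352913-69353012, minus strand): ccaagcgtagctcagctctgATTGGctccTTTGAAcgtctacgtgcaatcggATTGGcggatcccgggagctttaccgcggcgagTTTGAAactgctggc
Espl1 (chr15:102296193-102296292, plus strand): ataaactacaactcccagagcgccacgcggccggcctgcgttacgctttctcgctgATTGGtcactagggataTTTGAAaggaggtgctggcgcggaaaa
Ncapg (chr5:45669825-45669924, plus strand): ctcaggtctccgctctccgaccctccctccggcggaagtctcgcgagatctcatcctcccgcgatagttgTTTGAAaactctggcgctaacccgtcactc
Prc1 (chr7:80294376-80294475, plus strand): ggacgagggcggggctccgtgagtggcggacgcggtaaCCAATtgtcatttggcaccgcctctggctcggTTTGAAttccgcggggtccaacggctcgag

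In these 6 stretches TTTGAA on either strand began 18 bases before the start site in Cdc20, 29 in Ube2c, 15 and 71 in Cdk1, 27 in Espl1, and 30 in both Ncapg and Prc1, and it overlapped a CCAAT box in none of them. Over whole windows TTTGAA was found in 24 of the 40 matched mitotic genes (60%), against 14.1% of the 9044 genes of the table with a window. Within 50 bases of the start site on either side it was found in 22 of the 40 (55%), against 3.72% of the table's genes. The variant TTCGAA was found in 4 of the 40 (10%, against 2.52%), in Bub1, Bub1b, Cdc25b and Ube2s. CCAAT was found in 28 of the 40 (70%, against 43.7%), and both TTTGAA and CCAAT in 1 window in 22 genes, against 5.84% of the table's genes. The E2F letters TTCCCGC were found in 2 (5%, against 10.4%) and TTGGCGC in 6 (15%, against 5.11%). TTTGAA was held by 12 of the 18 matched genes that rose with irinotecan and by 12 of the 21 matched genes that did not pass. These are letter matches in fixed windows and do not show binding.

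**Figure D1:**
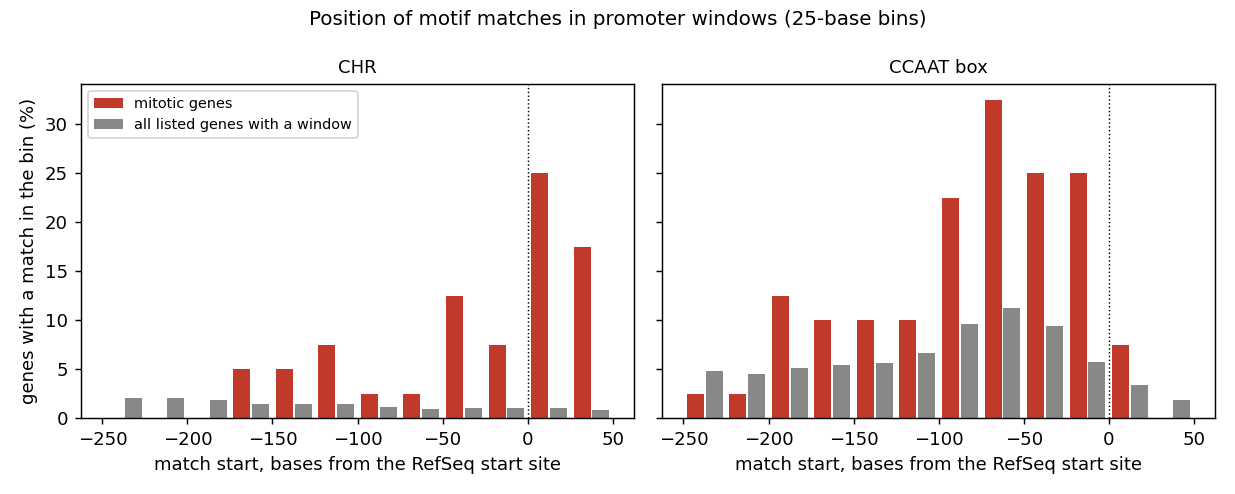
Share of genes (%) with a match to the CHR letters (left) or the CCAAT box (right) that starts in each 25-base bin, against distance from the RefSeq start site in bases, for the 40 matched mitotic genes (red) and the 9044 genes of the table with a window (grey). CHR matches in the mitotic genes were most frequent in the 25 bases after the start (25% of genes), and CCAAT matches 75 to 51 bases before it (32.5%).

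With irinotecan 18 of the 48 mitotic genes rose, 2 fell (Incenp and Ube2s) and 28 did not pass (edgeR quasi-likelihood test, adjusted p under 0.05 after Benjamini-Hochberg adjustment over all 11599 genes tested). Among all genes tested, 11.8% rose and 10.3% fell. Because the list was drawn up with earlier results known, shares of its genes beside those of all genes are descriptions and not tests. Among the 6346 genes whose mean level lay within the range of the mitotic genes, 29.1 to 534 CPM (counts scaled to library size, normalised by TMM), 11.3% rose and 15% fell. The changes were small. The median log2 fold change (irinotecan over DMSO) of the 48 genes was 0.11, a fold of 1.08, with a range from -0.17 to 0.42, against a median of 0.00 over all genes, and 41 of 48 were above 0, against 5804 of 11599. The 3 irinotecan libraries all lay above the 3 DMSO libraries in 27 of the 48 genes and all below in 2, against 19.3% and 17.8% of all genes. In cells measured in bulk, more cells in G2 or mitosis and more RNA per cell cannot be told apart.

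Over the 48 genes together, the shift was present in each irinotecan library. The median over the 48 genes of the difference from the DMSO mean (log2 CPM) was 0.11, 0.14 and 0.11 in irinotecan replicates 1 to 3. It was between -0.00061 and 0.0026 in the DMSO libraries, which are set here against their own mean. For the 7 kinetochore genes alone it was 0.010, 0.096 and 0.060 in irinotecan replicates 1 to 3, and -0.022, -0.018 and 0.049 in DMSO replicates 1 to 3. For all genes tested it lay between -0.0036 and 0.0056 in every library. With 1 library left out, the count of mitotic genes that rose was lowest, 11, without irinotecan replicate 1, when neither Incenp nor Ube2s passed. Over all genes the count that rose went from 1369 to 804 in that setting. The median log2 fold change of the 48 genes was then 0.12.

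**Figure D2:**
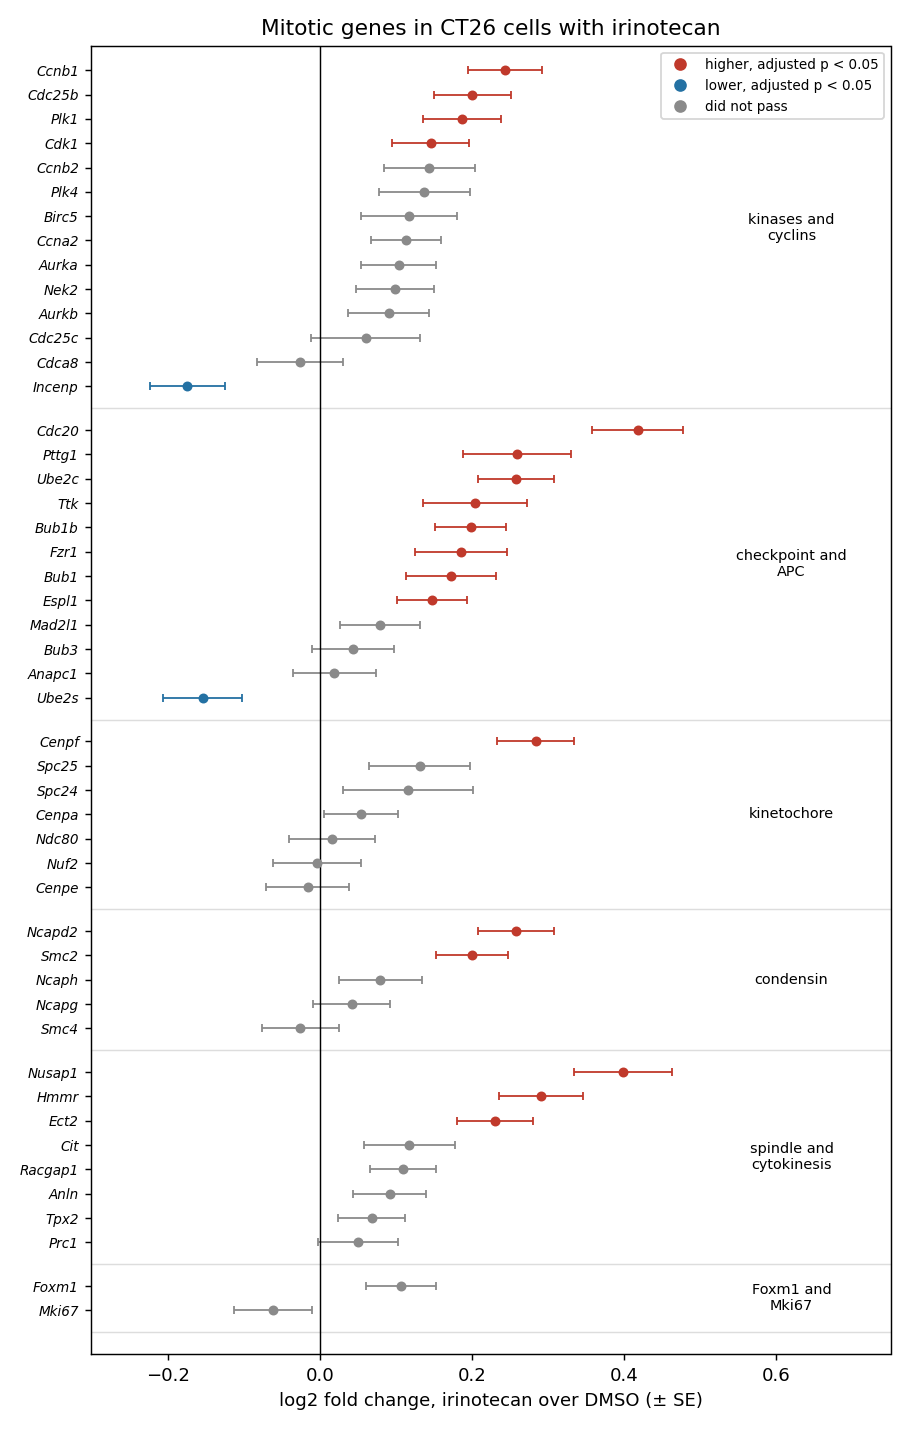
Log2 fold change of irinotecan over DMSO (points) with its standard error (bars) for the 48 mitotic genes, in the groups used in the text and ordered by size within each. Red points rose, blue points fell and grey points did not pass (adjusted p of 0.05). Cdc20 (0.42) and Nusap1 (0.40) lie farthest to the right and Incenp (-0.17) and Ube2s (-0.15) to the left.

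**Figure D3:**
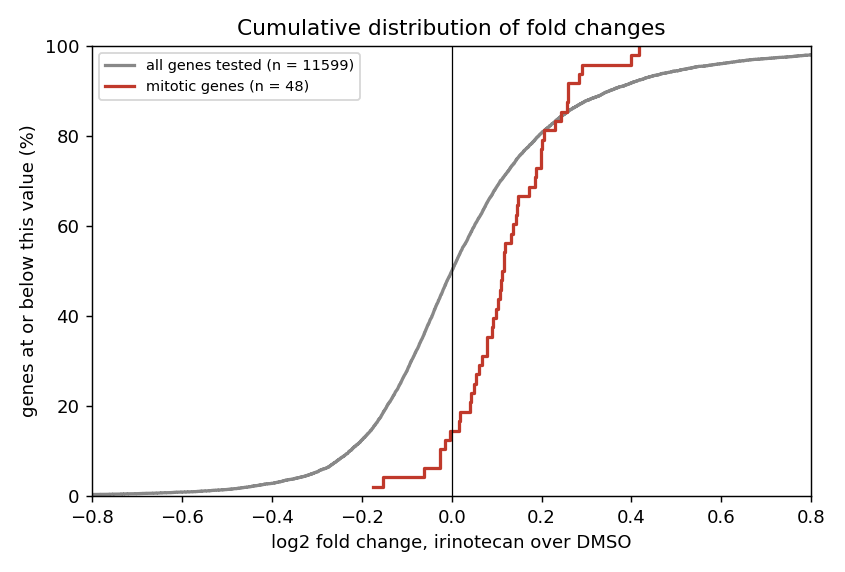
Cumulative share of genes (%) at or below each log2 fold change of irinotecan over DMSO, for all 11599 genes tested (grey) and the 48 mitotic genes (red). The red curve runs from -0.17 to 0.42 and crosses its median at 0.11, while the grey curve crosses its median at 0.00 and extends past both ends of the red one.

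Per length, these genes were well expressed in DMSO. Their mean FPKM (the authors' value, scaled by gene length and by library depth) ran from 4 ± 0.158 (SD, n = 3) for Cit to 112 ± 5.68 for Ube2c, with a median of 27.1 against 7.53 over all genes tested. Each gene held between 441 and 10058 counts in a library, and the median standard error of a log2 fold change was 0.052, against 0.079 over all genes. Changes of a given size were therefore easier to call in these genes than in the median gene.

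Among 14 genes of cyclins, kinases and their partners, 4 rose (28.6%, against 11.8% of all genes) and 1 fell, while 9 stayed short of the threshold. Their median log2 fold change was 0.12. Ccnb1 (ENSMUSG00000041431, chromosome 13, 100915158 to 100923078, GRCm39), cyclin B1, had 209.9, 199.9 and 211 CPM in DMSO replicates 1 to 3 and 254, 249 and 232 CPM in irinotecan replicates 1 to 3. The groups did not overlap, and it rose by 0.24 ± 0.049 on the log2 scale (SE, adjusted p = 0.0012). Cdk1 (chromosome 10, 69170976 to 69188768), the kinase that cyclin B1 activates, had 194, 198 and 179 CPM with DMSO and 217, 214 and 200.2 CPM with irinotecan. It rose by 0.15 ± 0.051 (adjusted p = 0.045), with DMSO replicate 2 just under irinotecan replicate 3. Within each library the ratio of Ccnb1 to Cdk1 in FPKM was 1.18 to 1.38 in DMSO and 1.35 to 1.37 with irinotecan, so those ranges overlapped.

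Cdc25b (chromosome 2, 131028869 to 131040417), a phosphatase that removes the inhibitory phosphates of CDK1, had 186, 189 and 179 CPM with DMSO and 226, 205 and 206 CPM with irinotecan. Irinotecan replicate 1 was the highest, the groups were apart, and the rise was 0.20 ± 0.050 (adjusted p = 0.0069). Plk1 (chromosome 7, 121758662 to 121769096), polo-like kinase 1, which acts from mitotic entry to cytokinesis, had 111, 115 and 107 CPM with DMSO and 129, 126 and 124 CPM with irinotecan. All irinotecan libraries were above all DMSO libraries, a rise of 0.19 ± 0.051 (adjusted p = 0.012). The calls of Cdc25b and Plk1 were lost without irinotecan replicate 1 (adjusted p = 0.066 and 0.059). That of Cdk1 failed when DMSO replicate 1 or 3 was left out (0.072 and 0.16), when irinotecan replicate 1 or 2 was (0.18 and 0.14), with DESeq2 (0.069) and with limma-voom (0.051), out of a range of 0.00246 to 0.181 over 12 alternatives.

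The other cyclins and kinases did not pass. Ccna2, cyclin A2, had 207, 202 and 197 CPM with DMSO and 217, 221 and 217 CPM with irinotecan, groups that did not overlap (log2 fold change 0.11 ± 0.046, adjusted p = 0.083). Aurka, Aurora A, the kinase of the spindle poles, had 132, 131 and 129.6 CPM with DMSO and 139, 145 and 138 CPM with irinotecan, also apart, at 0.10 ± 0.049 (adjusted p = 0.14). Values for Ccnb2 (cyclin B2), Plk4 (the kinase of centriole duplication) and Nek2 (a centrosomal kinase) were 0.14, 0.14 and 0.10, and for Cdc25c 0.06.

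The chromosomal passenger complex places Aurora B at centromeres and at the midzone. It is built from INCENP, survivin (Birc5) and borealin (Cdca8). Incenp (chromosome 19, 9849660 to 9876915), its scaffold, had 172, 183 and 175 CPM with DMSO and 152, 163 and 154 CPM with irinotecan. The groups did not overlap, and it fell by 0.17 ± 0.049 on the log2 scale (SE, adjusted p = 0.015). Aurkb had 152, 147 and 136 CPM with DMSO and 156, 158 and 148 CPM with irinotecan, with overlapping groups (log2 fold change 0.09 ± 0.053, adjusted p = 0.24, 95% interval -0.02 to 0.20). Birc5 and Cdca8 stood at 0.12 and -0.03, neither past the threshold. The ratio of Aurkb to Incenp in FPKM was 1.14 to 1.29 in DMSO and 1.41 to 1.51 with irinotecan, ranges that did not overlap in a pair picked after the values were seen. Incenp did not pass when DMSO replicate 2 or irinotecan replicate 1 or 3 was left out (adjusted p = 0.065, 0.077 and 0.051, of a range from 5.12e-04 to 0.0766 over 12 alternatives).

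Among 12 genes of the checkpoint and the APC, 8 rose (66.7%, against 11.8% of all genes), 1 fell and 3 stayed short of the threshold. Their median was 0.18 (log2), and the difference from the other groups was not tested. Cdc20 (ENSMUSG00000006398, chromosome 4, 118290098 to 118294549), the APC activator that the checkpoint restrains, had 163, 159 and 146 CPM in DMSO replicates 1 to 3 and 227, 209 and 189.6 CPM in irinotecan replicates 1 to 3. Every irinotecan library exceeded every DMSO library, and irinotecan replicate 1 was the highest. Its log2 fold change of 0.42 ± 0.060 (SE, adjusted p = 3.5e-05) had the highest value of the 48 genes. Fzr1, the APC activator of late mitosis and G1, rose by 0.19 ± 0.061 (adjusted p = 0.032).

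The APC receives ubiquitin from a pair of conjugating enzymes, UBE2C, which starts chains, and UBE2S, which extends them. Ube2c (chromosome 2, 164611818 to 164620742) had 298, 309.5 and 275 CPM with DMSO and 365, 344 and 346 CPM with irinotecan, groups that were apart, and rose by 0.26 ± 0.050 (adjusted p = 8.9e-04). Ube2s (chromosome 7, 4797545 to 4815589) had 369, 408 and 354 CPM with DMSO and 331, 348 and 338 CPM with irinotecan. All irinotecan libraries lay below all DMSO libraries, and it fell by 0.15 ± 0.052 (adjusted p = 0.037). Within a library the ratio of Ube2c to Ube2s in FPKM was 1.54 ± 0.049 in DMSO and 2.05 ± 0.117 with irinotecan (SD, n = 3). The ratios could not overlap, because Ube2c lay above and Ube2s below DMSO in every irinotecan library. A ratio within a library does not depend on how libraries are scaled. The pair was chosen after the values were seen, and its ratio adds no separate evidence for either gene. Ube2s no longer passed when libraries were scaled by total counts alone (adjusted p = 0.081), nor when DMSO replicate 1 or 2 was left out (0.057 and 0.23), nor when any irinotecan library was (0.15, 0.06 and 0.079 for replicates 1 to 3). The annotated span of Ube2s overlaps 521 bases of Rpl28 on the other strand, and Rpl28 had a log2 fold change of -0.13 that did not pass. The sources used here do not give the strandedness of the libraries, and reads in the shared stretch cannot be told apart. In all, 10 of the 48 genes overlap another listed gene on the other strand, 5 of them called. Anapc1, a scaffold subunit of the APC, had a log2 fold change of 0.02 ± 0.055 (95% interval -0.09 to 0.13, adjusted p = 0.85).

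Within the checkpoint, Bub1b (chromosome 2, 118428692 to 118472072), which encodes BUBR1, a part of the complex that inhibits CDC20, had 176, 168 and 177 CPM with DMSO and 198, 199.6 and 199 CPM with irinotecan. The 3 irinotecan libraries were close to each other and all above DMSO (log2 fold change 0.20 ± 0.047, adjusted p = 0.0042). Bub1 (chromosome 2, 127643042 to 127673785), the kinetochore kinase, had 112, 97.8 and 114 CPM with DMSO and 125, 121 and 118 CPM with irinotecan. It rose by 0.17 ± 0.059 (adjusted p = 0.039), with DMSO replicate 2 the lowest library. Ttk, which encodes MPS1, the kinase that starts checkpoint signalling, rose by 0.20 ± 0.068 (adjusted p = 0.036).

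Mad2l1, MAD2, the protein that binds CDC20 when kinetochores are unattached, had 137, 122 and 129 CPM with DMSO and 139, 136 and 134 CPM with irinotecan, with overlapping groups (log2 fold change 0.08 ± 0.053, adjusted p = 0.31). The ratio of Cdc20 to Mad2l1 in FPKM was 5.08 to 5.87 in DMSO and 6.36 to 7.31 with irinotecan, apart in a pair chosen after the values were seen. Bub3, the partner of BUB1 and BUBR1, was at 0.04 ± 0.054 and did not pass. The number of checkpoint and APC genes that rose was 4 without irinotecan replicate 1. It was 5 without DMSO replicate 1, 2 or 3 or irinotecan replicate 2, and 7 without irinotecan replicate 3. Over all genes, 804 to 1211 rose with 1 library left out, against 1369.

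Securin and separase control the opening of cohesin. Pttg1 (chromosome 11, 43311077 to 43317078), securin, had 51.4, 58.2 and 47.2 CPM with DMSO and 62.8, 63 and 61.8 CPM with irinotecan. The irinotecan libraries were close together and above DMSO, a rise of 0.26 ± 0.071 (adjusted p = 0.012), with the call lost without DMSO replicate 3 (0.062). Espl1, separase, rose by 0.15 ± 0.046 (adjusted p = 0.026). The calls of Bub1, Ttk, Fzr1 and Espl1 were fragile. Bub1 failed with DESeq2 (0.062) and when DMSO replicate 2 (0.22) or irinotecan replicate 1 or 2 (0.16 and 0.089) was left out. Ttk failed with DESeq2 (0.058), when any DMSO library was left out (0.053, 0.12 and 0.052), and when irinotecan replicate 1 or 2 was (0.2 and 0.076). Fzr1 failed when DMSO replicate 1 or 3 (0.096 and 0.076) or irinotecan replicate 1 or 2 (0.19 and 0.052) was left out. Espl1 failed when DMSO replicate 1 or 2 (0.082 and 0.051) or irinotecan replicate 1 or 3 (0.13 and 0.054) was.

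**Figure D4:**
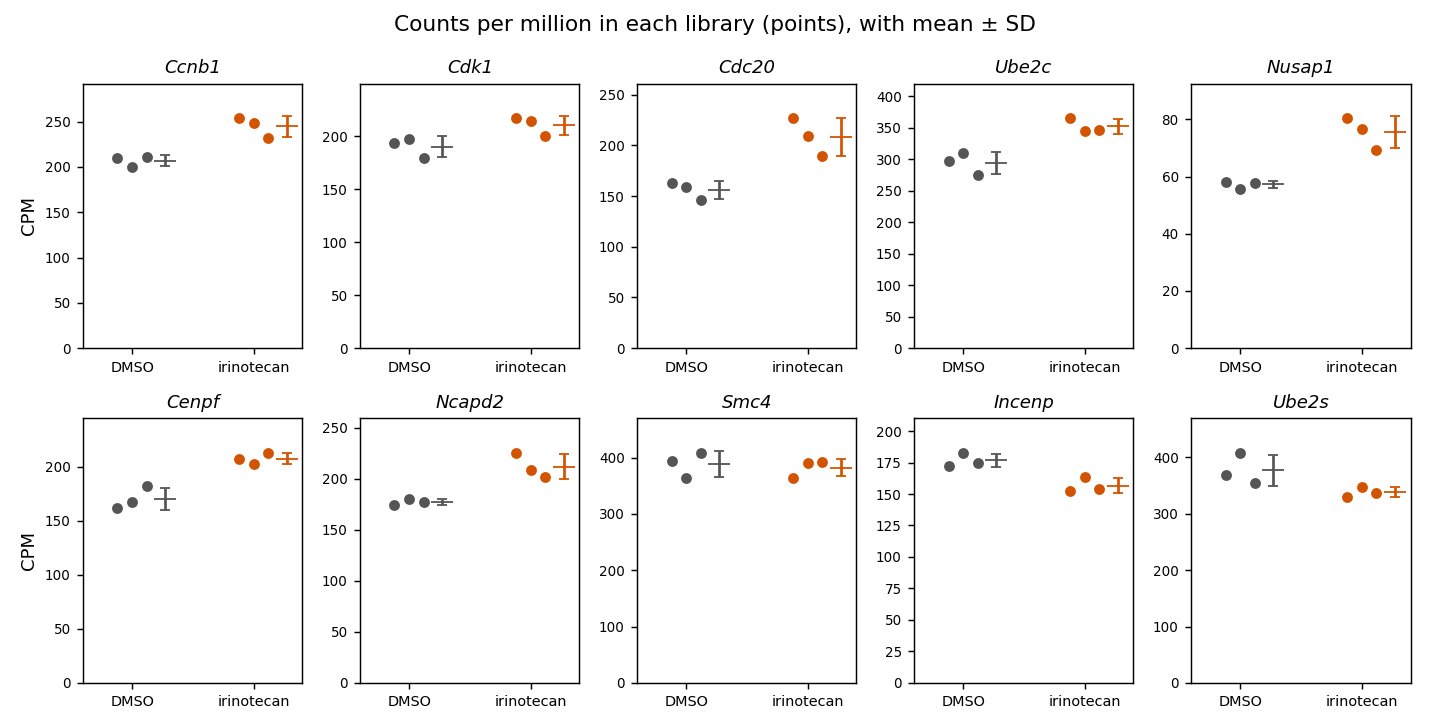
CPM in each of the 6 libraries (points, replicates 1 to 3 from left to right, grey DMSO and orange irinotecan) with the mean and SD of each group (n = 3) for 10 mitotic genes, each axis starting at 0. The irinotecan points are above the DMSO points for Ccnb1, Cdk1, Cdc20, Ube2c, Nusap1, Cenpf and Ncapd2, below them for Incenp and Ube2s, and overlap them for Smc4.

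Of 7 kinetochore genes, 1 rose (14.3%, against 11.8% of all genes) and 6 did not pass. Cenpf (ENSMUSG00000026605, chromosome 1, 189372803 to 189420283), a large coiled-coil protein of the outer kinetochore that accumulates in G2, had 162, 167 and 182 CPM in DMSO replicates 1 to 3 and 207, 203 and 213 CPM in irinotecan replicates 1 to 3. The groups did not overlap, and it rose by 0.28 ± 0.051 (SE, adjusted p = 4.4e-04), a call kept in all 12 alternatives. Cenpa, the histone H3 variant that marks centromeres, had 150.1, 157 and 159 CPM with DMSO and 164, 159 and 162 CPM with irinotecan, overlapping groups, at 0.05 ± 0.048 (adjusted p = 0.46).

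The NDC80 complex, which binds microtubules, has 4 subunits. Of these 0 passed and 0 had an unadjusted p under 0.05 with the main edgeR fit, DESeq2 or limma-voom. Ndc80 and Nuf2, its outer pair, had log2 fold changes of 0.02 ± 0.057 and -0.00 ± 0.058, with 95% intervals of -0.10 to 0.13 and -0.12 to 0.12. Spc24 and Spc25, its inner pair, stood at 0.12 ± 0.085 and 0.13 ± 0.066, with wider intervals of -0.06 to 0.29 and -0.01 to 0.27. Cenpe, the plus-end motor of the kinetochore, had a log2 fold change of -0.02 ± 0.055 (95% interval -0.13 to 0.10). The signs of Cenpe, Nuf2 and Ndc80 changed under some alternatives, none of them past the threshold.

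Condensin I, which compacts mitotic chromosomes, consists of SMC2, SMC4 and 3 further subunits encoded by Ncapd2, Ncapg and Ncaph. Of these 5 genes, 2 rose (40%, against 11.8% of all genes) and 3 did not pass. Ncapd2 (chromosome 6, 125144970 to 125168664), a HEAT-repeat subunit, had 175, 179.9 and 177 CPM with DMSO and 225, 209 and 202 CPM with irinotecan. The irinotecan libraries were all higher, and the rise was 0.26 ± 0.050 (adjusted p = 8.9e-04). Smc2 (chromosome 4, 52439243 to 52488260), an ATPase of the complex, had 165, 169 and 173 CPM with DMSO and 193, 189.9 and 199 CPM with irinotecan, and also rose with no overlap (0.20 ± 0.047, adjusted p = 0.0044). Both calls held in all 12 alternatives.

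Smc4, which forms a heterodimer with SMC2, had 395, 364 and 408 CPM with DMSO and 365, 391 and 391 CPM with irinotecan, with overlapping groups (log2 fold change -0.03 ± 0.051, 95% interval -0.13 to 0.08). The ratio of Smc2 to Smc4 in FPKM was 0.399 to 0.441 in DMSO and 0.462 to 0.504 with irinotecan, and the groups did not overlap. Ncapg, the other HEAT-repeat subunit, had 175, 167 and 181 CPM with DMSO and 173, 188 and 177 CPM with irinotecan, overlapping groups, at 0.04 ± 0.051 (adjusted p = 0.61). The ratio of Ncapd2 to Ncapg was 1.10 to 1.21 in DMSO and 1.25 to 1.47 with irinotecan. Both ratios were chosen after the values were seen. Ncaph, the kleisin that closes the ring, was at 0.08 ± 0.055 (adjusted p = 0.32).

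Of 8 genes of the spindle and cytokinesis, 3 rose (37.5%, against 11.8% of all genes) and 5 did not pass, and all 8 had log2 fold changes above 0. Nusap1 (ENSMUSG00000027306, chromosome 2, 119448779 to 119481725), a protein that bundles spindle microtubules near chromosomes, had 58.2, 55.8 and 57.9 CPM in DMSO replicates 1 to 3 and 80.5, 76.8 and 69.3 CPM in irinotecan replicates 1 to 3. The lowest irinotecan library was above the highest DMSO library, and the log2 fold change was 0.40 ± 0.065 (SE, adjusted p = 1.4e-04). Its span shares 172 bases with Oip5 on the other strand, a gene that also rose (0.61), and reads there cannot be told apart. Hmmr (chromosome 11, 40592222 to 40624249), a spindle protein and hyaluronan receptor, had 102, 103 and 112 CPM with DMSO and 131, 124 and 133 CPM with irinotecan, apart, and rose by 0.29 ± 0.055 (adjusted p = 7.0e-04). Ect2 (chromosome 3, 27151371 to 27208027), the exchange factor that activates RhoA for the cleavage furrow, had 163, 153 and 164 CPM with DMSO and 191, 179.8 and 193 CPM with irinotecan, apart, and rose by 0.23 ± 0.050 (adjusted p = 0.0022). The calls of these 3 genes held in all 12 alternatives.

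Partners of ECT2 in the same step had smaller values that did not pass. Racgap1, the centralspindlin subunit that recruits ECT2, was at 0.11 ± 0.044 (adjusted p = 0.079), with groups that did not overlap. Anln (anillin, a scaffold of the contractile ring) and Cit (citron kinase) were at 0.09 ± 0.048 and 0.12 ± 0.060. Tpx2, an activator of Aurora A on the spindle, had 302, 305 and 303 CPM with DMSO and 313, 318 and 323 CPM with irinotecan, groups apart by a small margin (log2 fold change 0.07 ± 0.044, adjusted p = 0.3). Prc1, which cross-links midzone microtubules, had 165, 185 and 187 CPM with DMSO and 181, 189 and 187 CPM with irinotecan, with DMSO replicate 1 the lowest library and overlapping groups (0.05 ± 0.052, adjusted p = 0.54). Its whole span of 21810 bases is shared with Rccd1 on the other strand, a gene that fell from a mean of 9.54 to 7.25 CPM.

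Foxm1, the transcription factor that drives many G2 and mitotic genes, and Mki67, the Ki-67 proliferation marker that coats mitotic chromosomes, fitted none of the groups above. Foxm1 had 365, 345 and 352 CPM with DMSO and 381, 372 and 389.9 CPM with irinotecan. Every irinotecan library was above every DMSO library, at 0.11 ± 0.046, without passing (adjusted p = 0.1). Mki67 had 391, 390.5 and 431 CPM with DMSO and 374, 379.9 and 409 CPM with irinotecan. These groups overlapped, and the log2 fold change was -0.06 ± 0.051 (95% interval -0.17 to 0.05, adjusted p = 0.44). Of this pair 0 passed with the main edgeR fit, DESeq2 or limma-voom, and 1 (Foxm1) had an unadjusted p under 0.05 in each. With edgeR, Foxm1 did pass when libraries were scaled by total counts alone (adjusted p = 0.035) and with a replicate block (0.018).

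Beyond the 48 genes, 127 other genes of mitosis were listed by function, also with earlier results of these data known, and 126 were tested. Of these 25 rose, 5 fell and 96 did not pass, 23.8% called against 22.1% of all genes, with a median log2 fold change of 0.06. The share that rose was 19.8%, against 11.8% of all genes. Other genes of the spindle and cytokinesis gave 10 higher of 29 (34.5%, against 11.8% of all genes, median 0.14). Ckap2, a microtubule-associated protein, rose from 101 ± 4.89 to 178 ± 1.89 CPM (SD, n = 3), which is 0.83 ± 0.051 on the log2 scale (adjusted p = 2.5e-10). Psrc1, a regulator of spindle dynamics, rose from 48.1 ± 1.8 to 84.2 ± 6.29 CPM. The log2 fold changes of Ckap2 and Psrc1 exceeded that of any of the 48 genes. Gtse1, a G2 and S phase protein that binds microtubules and p53, rose by 0.61 ± 0.051, and Cdca3, an activator of mitotic entry, by 0.56 ± 0.069, both chosen after their values were seen.

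Other APC subunits differed from the 12 checkpoint and APC genes in their counts, though the difference between the lists was not tested. Of 14 subunit and inhibitor genes, 1 rose (7.14%, against 11.8% of all genes), with a median of -0.05. It was Anapc11, the catalytic RING subunit (0.23 ± 0.060, adjusted p = 0.0096), a call lost without irinotecan replicate 2 (0.067). Among 29 genes of the inner and outer kinetochore 4 rose (13.8%, against 11.8% of all genes) and 25 did not pass (median 0.08). The largest rises were those of Oip5, part of the complex that loads CENP-A (0.61 ± 0.117), and Cenpt, which links the inner kinetochore to NDC80 (0.46 ± 0.069). Oip5, at a mean of 10.1 CPM in DMSO, shares 172 bases with Nusap1 on the other strand, at 57.3 CPM. Nusap1 also rose, and reads in the shared stretch cannot be told apart. Of 8 other checkpoint genes 2 were called (25%, against 22.1% of all genes). Zw10 of the RZZ complex fell by 0.27 ± 0.059 and Kntc1 of the same complex rose by 0.20 ± 0.055. The call of Kntc1 was lost without DMSO replicate 2 (0.066) or irinotecan replicate 3 (0.059).

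Of 17 other entry kinases, phosphatases and regulators, 3 rose (17.6%, against 11.8% of all genes) and 14 did not pass (median -0.02). Mastl, the Greatwall kinase that restrains the phosphatase opposing CDK1, rose from 36.4 ± 1.93 to 51.6 ± 1.9 CPM, or 0.50 ± 0.070 on the log2 scale (adjusted p = 2.7e-05), and Ccnf, cyclin F, by 0.31 ± 0.051. Of 3 condensin II genes 0 passed with the main edgeR fit, DESeq2 or limma-voom, and 2 had an unadjusted p under 0.05 in each (median 0.13). The 15 genes of cohesin and its regulators went both ways, 4 higher and 3 lower, 46.7% called against 22.1% of all genes. Esco2, an acetyltransferase of cohesin, and Sgo2a, a shugoshin that protects it, rose by 0.38 ± 0.086 and 0.33 ± 0.080, while Smc3 and Stag1, subunits of the ring, fell by 0.19 ± 0.046 and 0.25 ± 0.059.

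**Figure D5:**
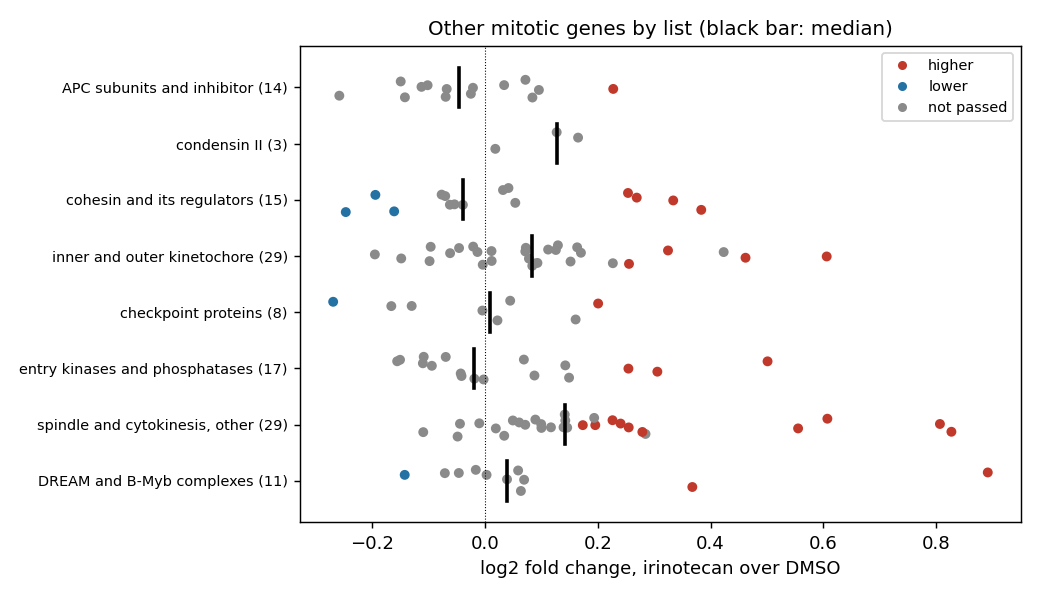
Log2 fold change of irinotecan over DMSO for 126 other mitotic genes, 1 point a gene, by list with the number tested in brackets (red rose, blue fell, grey did not pass, black bars are medians, vertical scatter has no meaning). Medians run from -0.05 for APC subunits to 0.14 for other spindle and cytokinesis genes, and Rbl2, Ckap2 and Psrc1 lie farthest to the right.

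Among 11 tested genes of the DREAM and B-Myb complexes, 2 rose and 1 fell, 27.3% called against 22.1% of all genes. Rbl2, the p130 pocket protein of DREAM, had 14.8, 10.5 and 11.2 CPM with DMSO and 27.2, 21.7 and 18.8 CPM with irinotecan. The groups did not overlap, and it rose by 0.89 ± 0.143 (adjusted p = 4.4e-04). Tfdp2, a partner of E2F factors, rose by 0.37 ± 0.081. E2f4, the main E2F of DREAM, fell by 0.14 ± 0.048 (adjusted p = 0.036). It no longer passed when libraries were scaled by total counts alone (0.094), when DMSO replicate 1 or 2 was left out (0.11 and 0.13), or when any irinotecan library was (0.069, 0.12 and 0.09). Cdkn1a, the p53 target p21, whose product inhibits cyclin-dependent kinases, had 284, 349 and 311 CPM with DMSO and 469, 497 and 524 CPM with irinotecan, and rose by 0.66 ± 0.063 in the same libraries in which 18 mitotic genes rose.

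The libraries held 16052326 to 17294496 counts. Of 12 colon epithelial markers 3 had a row (Cdh17, Krt18 and Krt20) at a summed 96.5 to 103 CPM in DMSO and 87.3 to 98.6 CPM with irinotecan. Epcam, Cdh1 (E-cadherin), Krt8 and the other 6 had none, so of the markers that would identify a colon line only these 3 could be read. Of 14 haematopoietic markers 2 had a row (Cd68 and Cd14), summing to 24.9 to 28.4 CPM in DMSO and 31.1 to 34.3 CPM with irinotecan. Of 6 fibroblast markers 4 had one (Pdgfra, Pdgfrb, Col1a1 and Col1a2), summing to 1582 to 1618 CPM and 1755 to 1805 CPM, and of 6 endothelial markers 0 did. In edgeR's test Krt18 fell (log2 fold change -0.23) and Cdh17 (1.40), Cd68 (0.76), Cd14 (0.24) and Col1a1 (0.47) rose, while Krt20, Pdgfra, Pdgfrb and Col1a2 did not pass. The part of these genes in the results above was not tested.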

How the data were processed

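Gene counts, FPKM and a comparison table were taken from 1 table deposited by the authors. Counts are whole-number read counts per gene, not normalised, per the file headers. FPKM values are the authors' own, used here only for levels per length and for ratios within a library. The authors' deposited log2 fold changes and p-values were used as a check: 17 of the 48 mitotic genes had a deposited adjusted p under 0.05, all 17 called here too, against 19.2% of all genes, and the deposited log2 fold changes had the opposite sign for 48 of 48, so directions come from the counts. The submitters' processing notes name, without their roles, HISAT2 2.1.0, fastp 0.19.3, GRCm39, StringTie 1.3.4d, featureCounts 1.6.2, edgeR 3.24.3 and DESeq2 1.22.1. Every listed gene had at least 1 count in every library, and the rule by which genes were listed is not given. A missing row therefore does not show that a gene had no reads. Strandedness is not given in the sources used here.

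Irinotecan and DMSO (3 libraries each) were compared with edgeR 4.0.16 in R 4.3.3 (filterByExpr, TMM, robust quasi-likelihood test, Benjamini-Hochberg adjustment over 11599 of 11604 genes, threshold 0.05). The standard error is the absolute log2 fold change over the square root of F, log2 CPM used a prior count of 2, and 95% intervals use the t quantile at the fit's degrees of freedom. Alternatives were total counts, RLE scaling, no filter, DESeq2 1.42.0, limma-voom 3.58.1, a replicate block and each library left out. The test was also run on simulated data, with changes given to genes drawn at random from the whole table. Most genes given the smallest simulated fold were missed, and false calls made up a larger share of the calls than the threshold. That fold was above the median fold of the mitotic genes, whose standard errors were smaller than those of the median gene. The share missed therefore cannot be carried over to the mitotic genes. Far fewer genes were changed in the simulation than were called in the data, so its share of false calls cannot be carried over either. The labels give 3 libraries per group, the series' design text mentions duplicates. The members, lists and tests were chosen with earlier results of these data known. Values in every library are given for 16 members picked by role, and for up to 3 further called members per group and direction with the smallest p. Ccna2 and Smc4 were added after their values were seen. Of each other list, up to 2 called genes per direction are named by rule, and Gtse1 and Cdca3 were added after their values were seen. A planned motif search in proteins was not run.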

Additional observations from a re-analysis of the deposited data

How the results depend on the processing

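Of the 18 mitotic genes that rose, 10 (Ccnb1, Bub1b, Cdc20, Ube2c, Cenpf, Ncapd2, Smc2, Hmmr, Ect2 and Nusap1) kept their call in all 12 alternatives and 8 lost it in at least 1. Neither gene that fell kept its call in all of them, and 7 of the 28 that did not pass gained one in at least 1. Ccna2, Racgap1 and Foxm1 were called higher with total counts only and with a replicate block. Ccnb2 was called higher in both of these and without DMSO replicate 1. Plk4, Birc5 and Anln were called higher with a replicate block only. The number that rose was 22 with total counts only, 18 with RLE scaling, 18 without the filter, 15 with DESeq2, 17 with limma-voom, and 11 to 17 with 1 library left out. The number that fell was 1 with total counts only and 0 to 2 with 1 library left out. Over all genes 1393 to 2362 were called with 1 library left out, against 2559, the lowest without irinotecan replicate 1. With total counts only, the median of all genes moved by 0.03 (log2) and 66.1% of all calls were higher, against 53.5%. With total counts only, log2 fold changes changed sign for Cdca8 (0.0049), Cenpe (0.014), Nuf2 (0.026) and Smc4 (0.0044). With 1 library left out they changed sign in ranges of -0.0080 to 0.097 for Bub3, -0.041 to 0.070 for Anapc1, -0.070 to 0.030 for Cenpe, -0.026 to 0.041 for Ndc80, -0.036 to 0.032 for Nuf2, -0.071 to 0.011 for Smc4 and -0.0044 to 0.083 for Prc1. None of these passed the threshold after the change of sign, and the cause was not tested. Same-numbered libraries of the groups correlated at 0.123, 0.0397 and 0.0846 in their deviations from the group means, and every library correlated best with its own number. The labels do not say whether equal numbers mean pairs. The main fit did not pair them, and these correlations do not show that pairing is absent. A replicate block gave 3628 calls over all genes, 25 mitotic genes higher, 2 lower, and 45 calls among the other mitotic genes against 30. The standard error was highest, 0.085, in Spc24, the mitotic gene with the lowest count in a library (441).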
